A study of Homo sapiens with 6 samples.

Results

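The 9 genes described here make up the core of the NRF2 antioxidant pathway: NFE2L2, which encodes NRF2 itself, its repressor KEAP1, and the target genes NQO1, HMOX1, GCLC, GCLM, TXNRD1, SRXN1 and OSGIN1. They were chosen by name, for what is known of them, out of 19103 protein-coding genes on the autosomes. NRF2 is a transcription factor that KEAP1 normally binds and hands to the CUL3 ubiquitin ligase for degradation. Oxidants and electrophiles modify KEAP1, NRF2 then accumulates, pairs with a small MAF protein and binds antioxidant response elements near genes of glutathione, thioredoxin, quinone and haem metabolism. Signalling through PI3K and AKT is also known to restrain GSK3, a kinase that marks NRF2 for destruction by another route.

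Accessible chromatin was mapped by ATAC-seq, in which the Tn5 transposase cuts and tags open DNA, in MCF-10A, an immortalised, non-tumour human breast epithelial line. The 6 samples were 2 of parental cells with wild-type PIK3CA (WT), 2 of knock-in cells with PIK3CA E545K, a change in the helical domain of the PI3K catalytic subunit, and 2 of knock-in cells with PIK3CA H1047R, a change in its kinase domain. The medium between experiments held 20 ng/ml EGF for parental cells and none for both knock-in lines, so that a difference between a knock-in and WT cannot be told apart from a difference in maintenance medium. All cells then spent the last 24 h in the same assay medium with 1% charcoal-stripped serum, 0.2 ng/ml EGF, insulin, hydrocortisone and cholera toxin. The sources used here do not give the number of clones behind each knock-in line.

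Each genotype had 1 peak list, called on both samples together, with 98910 peaks for WT, 89416 for E545K and 106747 for H1047R. No value below therefore has a replicate, a standard deviation or a test, the sequencing depth is unknown, and a difference between lists cannot be set against the spread between samples. Peak area is the caller's curve summed over the width of the peak, with a minimum of 200 in each list, and the summit value is the -log10 p at its highest point. The label of breast epithelium was checked with promoter peaks of marker genes: 11 of 12 epithelial markers had one in all 3 lists (TP63 had none at its canonical start), against 1 of 6 immune (CD14), 1 of 4 endothelial (KDR) and 0 of 4 neural markers.

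The sequences below carry the letters of the antioxidant response element inside accessible regions of 7 of the genes, and are printed because the regions that hold them recur in the results. They are reference sequence of hg38, read 5′ to 3′ on the strand of the gene, with each match to the element core TGACNNNGC, on either strand, in capitals. On the opposite strand the core reads as GC, any 3 bases, then GTCA. The longer NRF2-MAF form, a core preceded by T and with TGA in place of the 3 free bases when read on that opposite strand, contains both this core and an AP-1 match (TGANTCA), so its letters cannot separate NRF2 from AP-1 factors. The first, at chr22:35371999-35372134 on the plus strand, lies 9.09 kb upstream of HMOX1 and holds 4 cores at a regular spacing of 29 bp. The second, at chr22:35377072-35377184, lies about 4 kb upstream of HMOX1 and holds 2 cores 64 bp apart. The NQO1 element is at chr16:69726977-69727045 on the minus strand, between 417 and 485 bp upstream of the canonical start. One GCLC element is at chr6:53548239-53548267 on the minus strand, about 3.1 kb upstream of the canonical start, and the distal GCLC element is at chr6:53616024-53616092, about 71 kb upstream. The summits of the regions that hold these GCLC elements lie 136 and 1056 bp from other annotated GCLC coding starts. The TXNRD1 element is at chr12:104347541-104347609 on the plus strand, near the 3′ end of the gene. The NFE2L2 sequence, at chr2:177240050-177240126 on the minus strand, comes from a region with a peak in both knock-in lists and none in WT, and holds 2 cores 28 bp apart. The GCLM element at chr1:93909448-93909472 and the KEAP1 element at chr19:10502784-10502812, both on the minus strand, lie at the start of their genes and overlap an annotated exon of the gene.
HMOX1 far upstream: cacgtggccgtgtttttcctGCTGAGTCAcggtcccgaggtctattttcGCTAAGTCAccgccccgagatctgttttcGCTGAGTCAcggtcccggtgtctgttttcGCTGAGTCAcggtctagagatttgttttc
HMOX1 near upstream: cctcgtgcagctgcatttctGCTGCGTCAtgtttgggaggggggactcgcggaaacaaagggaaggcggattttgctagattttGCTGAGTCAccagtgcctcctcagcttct
NQO1: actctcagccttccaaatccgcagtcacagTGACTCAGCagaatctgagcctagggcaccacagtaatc
GCLC: cgcacaaagcGCTGAGTCAcggggaggcg
GCLC distal: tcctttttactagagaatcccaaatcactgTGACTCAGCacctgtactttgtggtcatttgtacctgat
TXNRD1: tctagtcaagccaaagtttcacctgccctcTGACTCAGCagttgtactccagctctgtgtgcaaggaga
NFE2L2: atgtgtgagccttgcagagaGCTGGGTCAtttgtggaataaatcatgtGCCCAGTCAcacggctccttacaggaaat
GCLM: cgatttctGCTTAGTCAttgtcttc
KEAP1: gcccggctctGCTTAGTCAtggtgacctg

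Promoters of the pathway were open in every genotype. A promoter was taken as the 1 kb on each side of the start of the canonical transcript, and 8 of the 9 genes had a peak there in all 3 lists, as had 65.5% of all protein-coding genes. TXNRD1 was the exception and had no peak at its canonical start in any list, but 13 of its 14 annotated coding starts had a peak in all 3 lists. No member had a promoter peak in some lists and not in others. Across all protein-coding genes such promoters made up 1.72% for E545K and not WT, 1.41% for WT and not E545K, 1.79% for H1047R and not WT, 1.03% for WT and not H1047R, 1.35% for E545K and not H1047R and 1.8% for H1047R and not E545K. To compare genotypes, the promoter areas were turned into percentile ranks within each list over the 12509 promoters with a peak in all 3, and a shift of at least 10 points was counted. The 8 member promoters had a median rank that was 50.3 in WT, 48.3 in E545K and 49.3 in H1047R, which is the middle of all such promoters. The promoter ranks of PAAF1 and COA4, which share 1 peak, and of UBE2K followed these 3 medians most closely of all genes outside the pathway lists, with distances of 0.402, 0.402 and 0.663 points.

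NFE2L2 (ENSG00000116044.17, hg38 chr2:177218667-177392756, minus strand) had the largest promoter peak of the 9 in each list. Its area was 9247 in WT, 8416 in E545K and 9478 in H1047R, and its rank 94.97, 94.2 and 95.5. KEAP1 (ENSG00000079999.14, chr19:10486125-10503558, minus strand), the sensor that holds NRF2 back, had a much smaller peak of 2557, 2421 and 2852, at ranks of 31.9, 34.7 and 34.3. The factor and its repressor thus sat far apart in promoter rank, and neither moved by 10 points between genotypes.

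Among the targets, NQO1 (ENSG00000181019.13, chr16:69706996-69726668, minus strand), which reduces quinones by a 2-electron step, had the largest promoter peak, at 7330 in WT, 7154 in E545K and 6607 in H1047R. GCLC (ENSG00000001084.13, chr6:53497341-53616970, minus strand) and GCLM (ENSG00000023909.10, chr1:93885199-93909456, minus strand) encode the catalytic and the modifier subunit of glutamate-cysteine ligase, which makes the precursor of glutathione. The GCLC promoter measured 3373, 3086 and 3769, and the GCLM promoter 3861, 3163 and 3653, in WT, E545K and H1047R. SRXN1 (ENSG00000271303.2, chr20:646615-653200, minus strand), which restores over-oxidised peroxiredoxins, measured 3084, 2987 and 3262. HMOX1 (ENSG00000100292.18, chr22:35380361-35394214, plus strand), the inducible haem oxygenase, had the smallest of the 8 promoter peaks in every list, at 2164, 1925 and 1931, and ranks of 25.1, 24.8 and 19.1. OSGIN1 (ENSG00000140961.14, chr16:83931311-83966332, plus strand), an oxidative stress-induced growth inhibitor, measured 4307, 4606 and 4384. It was the 1 promoter with a shift of at least 10 points, 10.5 points higher in E545K than in WT and also counted as higher in E545K than in H1047R, where 7.83% and 7% of all shared promoters were that much higher. In E545K this was a single peak of 1787 bp where WT and H1047R each had 2 peaks, and by the summit value the shift from WT was -0.69 points. None of the 8 was at least 10 points lower in E545K than in WT (6.77% of promoters), higher or lower in H1047R than in WT (7.5% and 6.7%), or lower in E545K than in H1047R (6.04%).

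**Figure D1:**
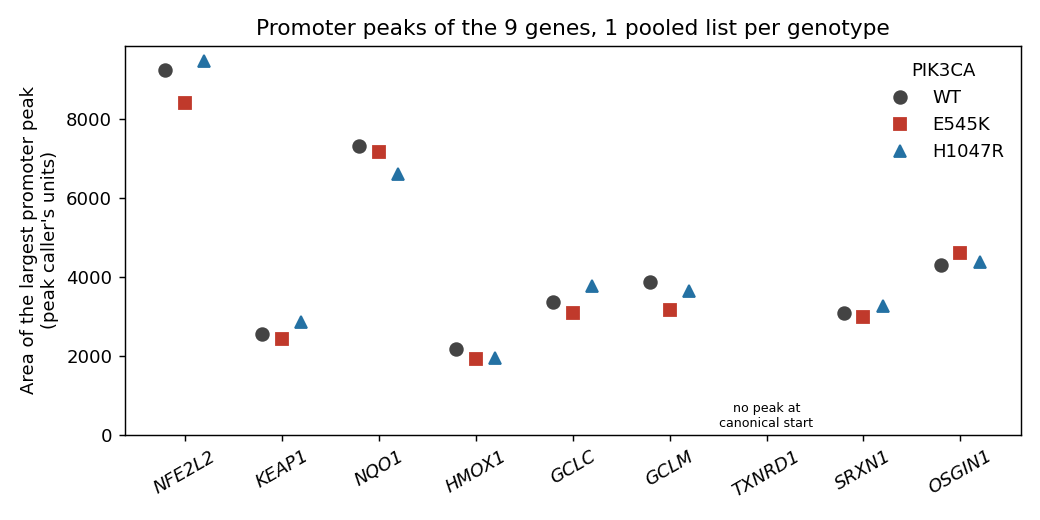
Area of the largest peak within 1 kb of the canonical start of each gene (vertical axis, peak caller's units) in WT (circles), E545K (squares) and H1047R (triangles), 1 pooled list per genotype and so no error bars. The 3 symbols of a gene lie close together, from about 2000 at HMOX1 to between 8416 and 9478 at NFE2L2, and TXNRD1 has no peak at its canonical start.

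Beyond the promoters, the genotypes differed more. Touching peaks of the 3 lists were merged into 120615 regions genome-wide, of which 98 lay in the body of a member gene or within 20 kb of it. A peak of every list was present in 63 of these 98 regions, or 64.3% (Wilson 95% interval 54.4 to 73.1%, for counting error only), against 61.2% of all regions. Of the 98, 9 (9.18%) had a peak in H1047R only, against 11.04% of all regions, 6 (6.12%) in E545K only, against 4.52%, and 5 (5.10%) in WT only, against 6.73%. Peaks in WT and E545K were found in 6 (6.12%), against 2.13% of all, in both knock-ins in 5 (5.10%), against 4.62%, and in WT and H1047R in 4 (4.08%), against 9.76%. Of the 6 regions of WT and E545K, 5 lay at TXNRD1. Regions held by fewer lists were weaker: the largest area in a region had a median of 291 with 1 list (204 to 1214), 470 with 2 lists (228 to 1065) and 1271 with all 3 (308 to 9478). Summits inside a coding gene but outside the exons of its canonical transcript, here called intronic, made up 43 of the 63 shared regions. They also made up 13 of the 15 with 2 lists and 16 of the 20 with 1 list. This class includes regions at gene starts, such as those with summits 27 bp upstream of the NQO1 start and 133 bp upstream of the OSGIN1 start. Of the 98 regions, 7 lay within 1 kb of a coding start of another gene (HNRNPA3, AGPS, S1PR5, MCM5, DNTTIP2, EID3 and NECAB2), and their accessibility cannot be assigned to the member rather than to that neighbour.

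**Figure D2:**
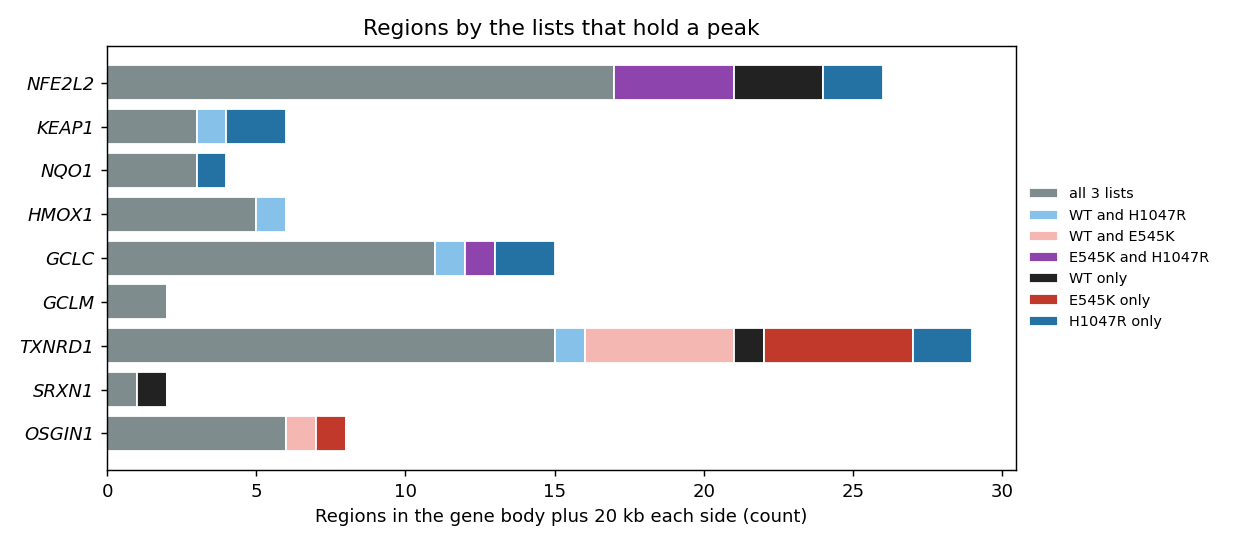
Number of accessible regions in the body of each gene plus 20 kb on each side (horizontal axis), coloured by which of the 3 lists hold a peak. TXNRD1, with 29 regions, and NFE2L2, with 26, carry most of the regions held by some lists only, and the 2 regions of GCLM are held by all lists.

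Counted as peaks, 11 of 81 E545K peaks at the members (13.6%) had no overlapping WT peak, against 12.6% of all E545K peaks, and 10 of 83 WT peaks (12.0%) had no E545K partner, against 20.3%. In H1047R, 14 of 84 peaks (16.7%) had no WT partner, against 17.9%, and 11 of 83 WT peaks (13.3%) had no H1047R partner, against 11%. Between the knock-ins, 12 of 81 E545K peaks (14.8%) had no H1047R partner, against 9.14%, and 13 of 84 H1047R peaks (15.5%) had no E545K partner, against 23.6%. The share of E545K peaks absent from H1047R rested on TXNRD1: without this gene it was 3.57%. By gene, 4 of the 9 had an E545K peak without a WT partner (33.1% of all genes), 7 a WT peak without an E545K partner (53.7%), 5 an H1047R peak without a WT partner (48.1%), 4 a WT peak without an H1047R partner (34.5%), 2 an E545K peak without an H1047R partner (26.4%) and 6 an H1047R peak without an E545K partner (58.9%). Few of the unpartnered peaks were strong, meaning in the upper 50% of their list by area (above 651 in WT, 624 in E545K and 639 in H1047R). Of 35 strong E545K peaks at the members, 0 lacked a WT partner and 0 an H1047R partner, where the genome-wide shares of strong peaks were 2.55% and 1.6%. Of 49 strong WT peaks, 1 lacked an E545K partner (2.13%) and 2 an H1047R partner (1.4%). Of 50 strong H1047R peaks, 2 lacked a WT partner (2.95%) and 1 an E545K partner (2.87%). At these numbers of strong peaks the genome-wide shares also come to very few peaks. Those peaks lay at NFE2L2, GCLC and TXNRD1 and are given with these genes.

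For the 63 regions with peaks in all lists, areas summed over a region were ranked within each list over the same 73832 shared regions. E545K was at least 10 points higher than WT in 10 of the 63 (15.9%; 16.4% of all shared regions) and lower in 14 (22.2%; 17% of all). H1047R was higher than WT in 12 (19.0%; 17.1% of all) and lower in 11 (17.5%; 17.6% of all). E545K was higher than H1047R in 10 (15.9%; 16.5% of all) and lower in 13 (20.6%; 16.4% of all). Ranked by summit value, E545K was higher than WT in 7 (11.1%; 18.2% of all shared regions) and lower in 17 (27.0%; 18.9% of all). H1047R was higher than WT in 8 (12.7%; 19% of all) and lower in 14 (22.2%; 19.7% of all), and E545K higher than H1047R in 10 (15.9%; 18.5% of all) and lower in 15 (23.8%; 18.4% of all). The median shifts by area were -0.39 points for E545K from WT, -0.93 for H1047R from WT and 0.54 for E545K from H1047R. By area, the shares in H1047R lay within 2 points of those of all regions. In E545K the share at least 10 points below WT was 22.2% by area, against 17% of all regions, and 27.0% by summit value, against 18.9%. In H1047R it was 22.2% by summit value, against 19.7%. With 63 regions such differences rest on few regions, and whether they exceed counting error was not tested. Nor were they spread over all member genes. Of the 14 regions lower in E545K by area, 5 lay at TXNRD1, 3 at HMOX1 and 3 at NFE2L2, while NQO1, GCLM, SRXN1 and OSGIN1 had none. The comparisons with WT share the WT list.

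**Figure D3:**
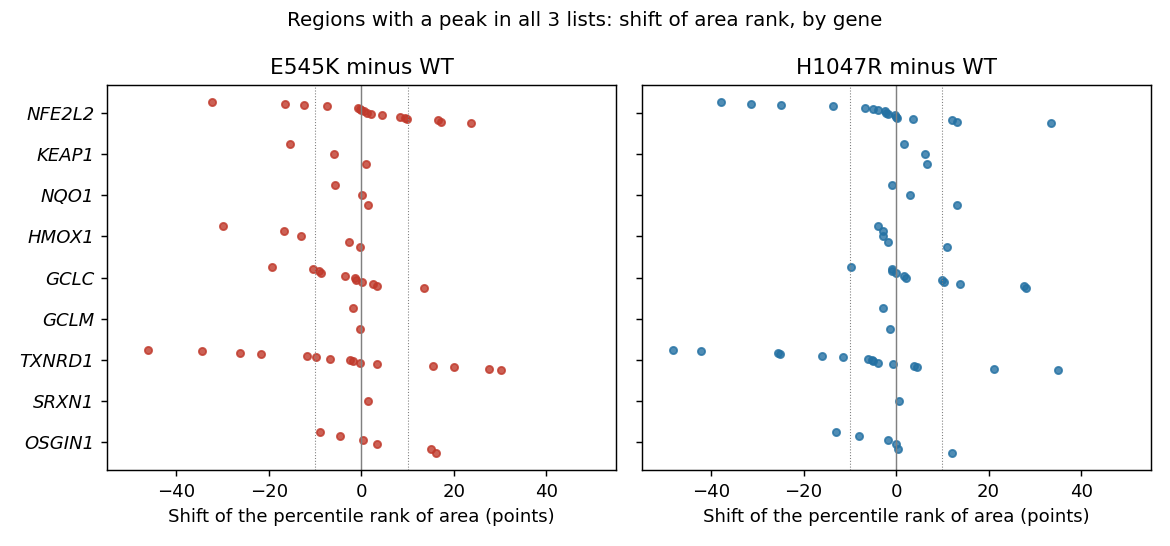
Shift of the percentile rank of area from WT (horizontal axis, points) for the 63 regions with peaks in all 3 lists, by gene, in E545K (left) and H1047R (right); each point is 1 region and dotted lines mark 10 points. Several HMOX1 points lie left of the line in E545K and none in H1047R, while TXNRD1 points spread to both sides in both knock-ins, from -46.2 to 30.2 in E545K and from -48.3 to 35.0 in H1047R.

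At HMOX1 the 3 upstream regions shared by all lists ranked lower in E545K than in WT and H1047R, and in H1047R ranked within 3 points of WT or higher. Haem oxygenase 1 breaks haem down to biliverdin, iron and carbon monoxide, and its upstream elements are known binding sites of NRF2 and of the repressor BACH1. The region 14.5 kb upstream (chr22:35366281-35366841, intergenic) measured 1162 in area in the WT list, 450 in the E545K list and 1133 in the H1047R list. The region 9.09 kb upstream (chr22:35371518-35372394, intergenic), which holds the 4 evenly spaced cores printed above, measured 1822, 1031 and 1786. The region 4.08 kb upstream (chr22:35376747-35377263), which holds the printed pair of cores, measured 766, 417 and 1072. In each of these, E545K had the lowest rank of the 3 lists. The shifts of E545K from WT were -29.9, -13.2 and -16.8 points by area, and -34.3, -14.5 and -26.4 points by summit value. For H1047R the shifts from WT were -2.94, -1.64 and 11.1 points. Lower by at least 10 points in E545K than in WT, and also than in H1047R, were thus 3 of 3 upstream shared regions, where 17% and 16.4% of all shared regions were. A weaker region 16.6 kb upstream had peaks of 426 in WT and 300 in H1047R and none in E545K. Because the cells were profiled in bulk, fewer cells with an open site and less opening per cell cannot be told apart here or below. The HMOX1 start region itself measured 2164, 1925 and 1931, with a shift of E545K from WT of -0.25 points, and the region 18.9 kb downstream, at the start of MCM5, 2006, 1606 and 1881. This stretch was singled out after its values were seen.

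**Figure D4:**
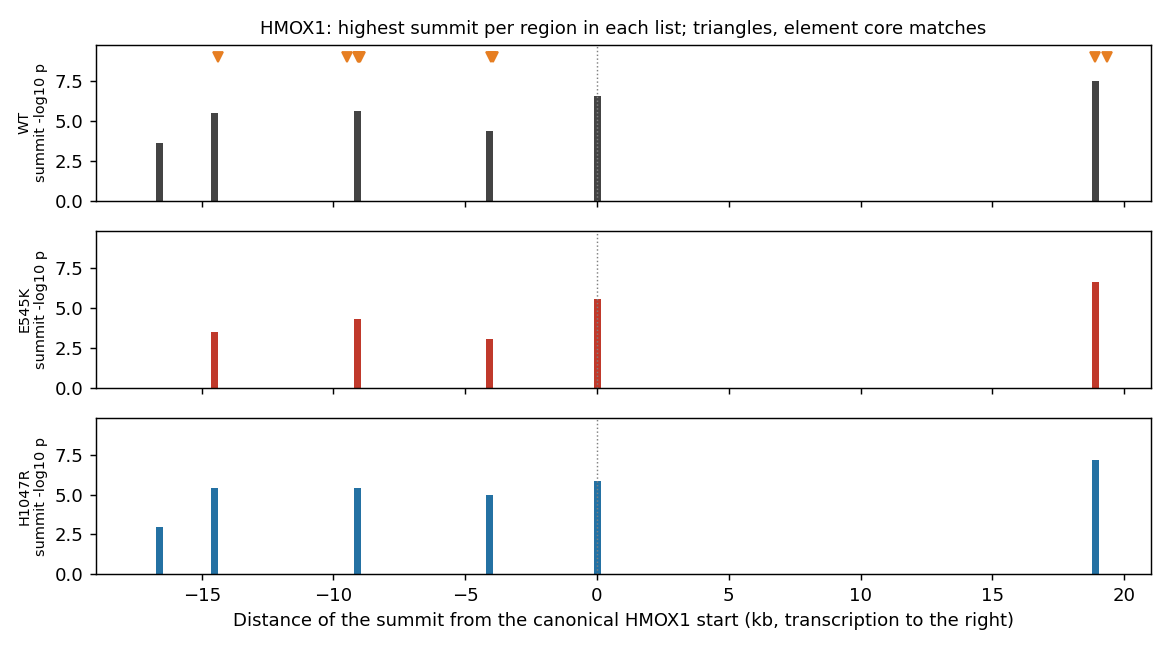
Highest summit value (vertical axis, -log10 p) in each region from 19 kb upstream to 21 kb downstream of the HMOX1 start (dotted line), in WT (top), E545K (middle) and H1047R (bottom); orange triangles mark element core matches inside regions. The 3 bars at 14.5, 9.09 and 4.08 kb upstream are shorter in E545K than in the other lists, and the bar 16.6 kb upstream is missing there. The bars at the start (6.57 in WT, 5.55 in E545K and 5.84 in H1047R) and 18.9 kb downstream (7.54, 6.64 and 7.18) are also shortest in E545K. The bars are not ranked, and the median summit value was 4.25 in the WT list, 3.97 in E545K and 4.14 in H1047R.

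The grouping of cores 9.09 kb upstream of HMOX1 was rare in these data. Searched over whole regions, 10 of the 120615 (0.00829%) held 4 or more core matches starting within 100 bp of each other. The HMOX1 region was the only one of them at a member. With 2 or more such matches there were 2210 regions (1.83%), 6 of them at members. The difference in width given below applies to these counts too. Within 100 bp of the summit, a core was present in 14 of the 98 member regions (14.3%), against 12.1% of all regions. Searched over the whole region the count was 44 of 98 (44.9%), against 28.0%, but member regions were also wider, with a median of 784 bp against 506 bp for all regions. Within 100 bp of the summit the NRF2-MAF form was found in 2 of the 98 regions (2.04%), against 1.08% of all. Over whole regions, to which the difference in width also applies, it was found in 5 (5.10%), against 1.505%: in both printed HMOX1 regions, at the NQO1 start, in the distal GCLC region and near the 3′ end of TXNRD1. All 5 of those regions had peaks in all 3 lists, so in none of them did the genotypes differ in presence of a peak. The AP-1 letters lay within 100 bp of the summit in 25 of the 98 regions (25.5%), against 34.8% of all, and anywhere in the region in 42 (42.9%), against 46.1%. In promoter windows of 1 kb on each side, 8 of the 9 members had a core, as had 54.2% of all protein-coding genes, 1 of the 9 had the NRF2-MAF form, as had 0.607%, and 7 of the 9 had an AP-1 match, as had 32.4%. A match of letters is a description of the reference sequence and does not show that a factor was bound.

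TXNRD1 (ENSG00000198431.18, chr12:104215779-104350307, plus strand), the cytosolic thioredoxin reductase that passes electrons from NADPH to thioredoxin, had the most regions of the 9 genes and the most that differed. Its strongest regions in WT lay inside the gene: 71.1 kb downstream of the canonical start, 1 bp from another annotated coding start, the areas were 8645 in WT, 7771 in E545K and 7434 in H1047R, and 4.36 kb downstream they were 6773, 4897 and 4445. From 4.36 to 84.98 kb downstream, 10 of 14 regions were shared by all lists. E545K ranked below WT in 9 of these 10, by at least 10 points in 5, and H1047R in all 10, by at least 10 points in 6. Over all 73832 shared regions, E545K ranked below WT in 38963 and H1047R in 38448, by at least 10 points in 17% and 17.6%. By summit value the counts at TXNRD1 were the same. At 61.9 kb (chr12:104277277-104278059) the area was 1261 in WT, 596 in E545K and 712 in H1047R, with shifts from WT of -21.6 and -25.2 points by area and -19.7 and -31.5 by summit value. At 79.8 kb (chr12:104294990-104296317) it was 1299, 442 and 488, with shifts of -34.4 and -42.3 points by area, but only -13.6 and -19.3 by summit value. At 84.98 kb (chr12:104299487-104301137) it was 1594, 387 and 492, with shifts of -46.2 and -48.3 points by area and -39.2 and -32.9 by summit value. Both knock-in lists ranked at least 10 points below WT in these 3 regions by either measure. Peaks at 79.8 kb were 1328 bp wide in WT, 558 bp in E545K and 326 bp in H1047R, and at 84.98 kb 1651, 532 and 484 bp. The nearest coding start to the summit at 84.98 kb was that of EID3, 2985 bp away, against 11859 bp for TXNRD1. A strong WT peak 78.6 kb downstream, of area 1065, had a partner of 457 in E545K and none in H1047R.

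Farther downstream fewer of the TXNRD1 regions were shared by all lists. Beyond 85 kb, 5 of 15 regions were shared. By area 1 of these ranked below WT in each knock-in list, and by summit value 2 did in each. At 87.9, 127 and 137 kb the WT areas were 243, 285 and 219, near the minimum of 200. Those shared regions had little room to rank lower in a knock-in, so this stretch cannot be set against the first. Weak peaks there were spread unevenly over the lists: of the 13 regions from 78.6 to 125 kb downstream, WT had a peak in 8, E545K in 13 and H1047R in 3. The 5 that were found in E545K only had areas of 217 to 495, in a list whose minimum was 200. The covered part of the gene was 16.1% with WT peaks, 15.0% with E545K peaks and 8.89% with H1047R peaks. The printed TXNRD1 element lies in a shared region 132 kb downstream that measured 854, 556 and 794. At 143 kb downstream, past the end of the gene, a wide region measured 5507 in WT against 7830 in E545K and 9100 in H1047R, with shifts of 3.32 and 3.79 points near the top of the ranks. The limits of these stretches were chosen after the values were seen.

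**Figure D5:**
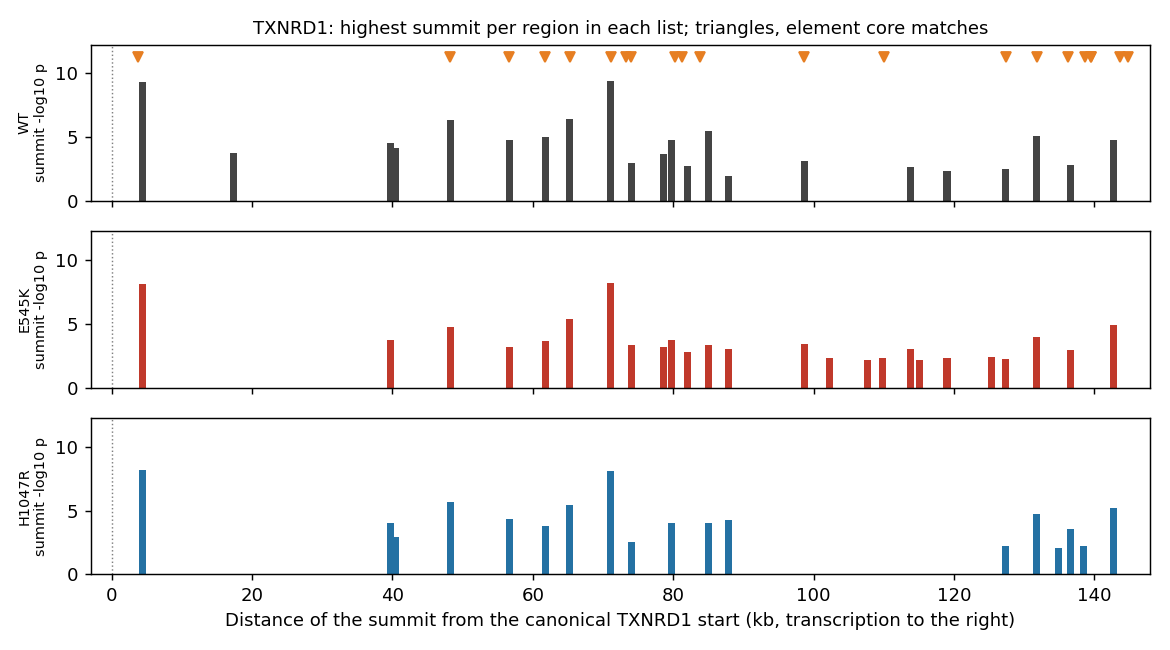
Highest summit value (vertical axis, -log10 p) in each region of TXNRD1 and its flanks by distance from the canonical start (dotted line), in WT (top), E545K (middle) and H1047R (bottom); orange triangles mark element core matches inside regions. Bars between about 60 and 85 kb are mostly shorter in both knock-ins than in WT, and from about 100 to 125 kb E545K has a row of low bars where H1047R has none.

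NFE2L2, whose 37 annotated coding starts are spread over its long gene body, had 26 regions, of which 17 were shared by all lists, 4 were found in both knock-ins and not in WT, 3 in WT only and 2 in H1047R only. These classes made up 61.2%, 4.62%, 6.73% and 11.04% of all regions. The 4 regions of both knock-ins lay on both sides of the canonical start. At 24.6 kb downstream, in the region with the printed pair of cores, the areas were 404 in E545K and 298 in H1047R, and at 19.5 kb downstream 470 and 438. At 49.7 kb upstream they were 305 and 608, and at 50.8 kb upstream (chr2:177315338-177315804, 459 bp from another NFE2L2 coding start) 572 and 756. The last H1047R peak counted as strong and the E545K peak did not. Around it, among 5 regions 42.0 to 52.0 kb upstream, WT had a peak in 1, E545K in 3 and H1047R in 5, with areas of 369 and 204 for those of H1047R alone. The opposite case was an intronic region 87.3 kb upstream (chr2:177351693-177352636) with a strong WT peak of 1214, a summit value of 4.67, and no peak in either knock-in. The other WT-only regions were weak, at 417 and 206. The wide promoter region of NFE2L2 shifted by -0.17 points in E545K and 0.13 in H1047R. Some shared regions upstream of it moved further. At 1.86 kb upstream the areas were 1016 in WT, 623 in E545K and 438 in H1047R, with shifts from WT of -12.4 and -37.8 points, and at 17.2 kb upstream 670, 854 and 1736, with shifts of 16.5 and 33.4 points. The H1047R shifts of -37.8 and 33.4 points were the lowest and highest among the 17 shared regions. Between these, the shared region 10.5 kb upstream shifted by -16.4 points in E545K and -13.5 in H1047R. The shared region 12.4 kb downstream shifted by 0.62 and -3.94 points. Of the 17 shared regions, 3 were at least 10 points higher and 3 lower in E545K than in WT, and 3 higher and 4 lower in H1047R.

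At KEAP1, 3 of 6 regions were shared, 2 were found in H1047R only and 1 in WT and H1047R. The KEAP1 region 7.35 kb upstream measured 889 in WT, 503 in E545K and 1123 in H1047R, and the region 17.7 kb upstream 1719, 1235 and 2244. The shifts from WT were -15.5 and -5.84 points in E545K and 6.71 and 6.34 points in H1047R, so only that of E545K at 7.35 kb reached 10 points.

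GCLC had 15 regions, 11 of them shared. Ranked among all shared regions, the region at its start, the region 2.97 kb upstream with a printed element (3270, 2803 and 3192 in WT, E545K and H1047R) and the distal region 70.8 kb upstream (3630, 3079 and 3681) stayed within 2 points of WT in both knock-ins; ranked among promoters only, the GCLC promoter was 46.2 in WT, 47.6 in E545K and 50.4 in H1047R. In H1047R, 4 of the 11 shared regions were by area at least 10 points higher than in WT and 0 were lower, where 17.1% and 17.6% of all shared regions were. By summit value, H1047R ranked below WT in 5 of the 11, in 1 by at least 10 points (-10.9 at 48.1 kb downstream). The region 83.0 kb upstream went from 13.9 points by area to -4.93 by summit value, while those 48.3 kb upstream and 51.6 kb downstream stayed higher, at 20.4 and 19.9 points. At 48.3 kb upstream the areas were 335, 294 and 735, a shift of H1047R from WT of 28.2 points, and at 51.6 kb downstream 397, 249 and 832, a shift of 27.7 points. A strong peak 36.2 kb upstream (chr6:53581146-53581616), of area 655, was found in H1047R only. In E545K, the region 66.5 kb upstream measured 472 against 919 in WT and 1271 in H1047R, a shift from WT of -19.3 points.

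The remaining targets had few regions. NQO1 had 4, of which 3 were shared, and its region 15.0 kb downstream of the start ranked highest in H1047R, with 1535 in WT, 1116 in E545K and 2590 in H1047R and ranks of 68.0, 62.4 and 81.1. GCLM had 2 shared regions, its promoter and a region 30.3 kb downstream of 2579, 2294 and 2356, neither of which shifted by 10 points. SRXN1 had its promoter and a weak WT-only region of 257. OSGIN1 had 8 regions, 6 of them shared, and those that differed from WT by at least 10 points had areas of 578 or less in every list.

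The wider list held 64 genes of the same biology: partners and adaptors of NRF2, glutathione, thioredoxin and peroxiredoxin, superoxide and peroxide, NADPH supply, haem and iron, and detoxification. A promoter peak in all 3 lists was present for 59 of the 64, which included 10 of 10 partners and adaptors, 12 of 12 thioredoxin and peroxiredoxin genes, 15 of 15 detoxification genes, 10 of 13 glutathione genes, 5 of 5 NADPH genes, 4 of 5 haem and iron genes and 3 of 4 superoxide and peroxide genes. Promoter peaks in some lists only were found at 2 genes, both glutathione peroxidases. GPX2 had 1 in WT, of area 321, and GPX3 had 1 in each knock-in, of 254 in E545K and 415 in H1047R. No promoter peak was found at GSTM3, SLC40A1 and SOD3. Of the 59 shared promoters, 3 were at least 10 points higher and 5 lower in E545K than in WT, where 7.83% and 6.77% of all shared promoters were. In H1047R 4 were higher and 6 lower than in WT (7.5% and 6.7% of all), with median shifts of -0.90 points for E545K and -2.94 for H1047R. E545K was higher than H1047R in 4 and lower in 0 (7% and 6.04% of all).

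Strong unpartnered peaks lay in the body or within 20 kb of some of these wider genes. In E545K against WT, 6 of 64 genes had at least 1, where 5.73% of all genes did: MAFF with 3, and MAFK, BACH1, NFE2L1, GPX2 and TXNIP with 1 each. MAFF and MAFK encode small MAF partners of NRF2, BACH1 a repressor at the same elements, NFE2L1 a related factor, and TXNIP an inhibitor of thioredoxin. MAFF again had 3, and MAFK and TXNIP 1 each, against H1047R, so 3 of 64 genes, where 3.87% of all genes did. In H1047R against WT the 6 genes were BACH2, NFE2L1, GSS, GSTM3, SOD2 and ABCC1, where 7.04% of all genes had such a peak, and against E545K the 4 were GSS, GSTM3, SOD2 and ABCC1, where 7.69% did. WT had strong peaks without an E545K partner at 1 gene, SLC7A11, the cystine importer (4.6% of all genes), and without an H1047R partner at SLC7A11, with 2, and TXN, with 1 (2.74% of all genes). With strength set by summit value, MAFF, MAFK and GPX2 had no such E545K peak, which left 3 genes against WT (BACH1, NFE2L1 and TXNIP) and 1 against H1047R (TXNIP). In the same setting SLC7A11 lost its WT peak without an E545K partner and kept 1 without an H1047R partner, TXN and SOD2 had none, NQO2 had 1 WT peak without a partner in either knock-in, and IDH1 and AKR1C2 each had 1 H1047R peak, without a partner in WT and in E545K respectively. These 3 genes were named after their values were seen. By area, the TXNIP promoter ranked at 72.1 in WT, 95.5 in E545K and 56.5 in H1047R, and that of SLC7A11 at 78.6, 64.6 and 63.9. The largest fall from WT among the 59 shared promoters was in both knock-ins that of TXNRD2, named for this value. It ranked at 44.6 in WT, 11.9 in E545K and 11.7 in H1047R. The summit value at the TXNIP promoter was nearly the same for WT (10.76) and E545K (10.78), with 9.59 for H1047R. E545K peaks covered 91.3% of TXNIP itself, against 35.5% for WT peaks and 13.9% for H1047R peaks. The higher rank of TXNIP by area in E545K thus went with wider coverage. Its summit values were not ranked, and the median summit value was 3.97 in the E545K list against 4.25 in the WT list. Nearly equal summit values therefore need not mean equal ranks.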

How the data were processed

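ATAC-seq was made on 6 MCF-10A samples, 2 per PIK3CA genotype. Per the submitters' processing notes, reads were handled with Trim Galore 0.4.0, cutadapt, FastQC, SAMtools and Genrich 0.6.1 on hg38; the sources used here do not name the aligner. The deposited lists pool both samples of a genotype, give the 22 autosomes, and hold for each peak a signal (peak area, the caller's curve summed over the peak), the -log10 p at the summit and a display score, which was not used here. These authors' values are printed side by side as a description; lists were compared by ranks taken inside each list, since depth is unknown and may differ between lists.

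Promoters, exons and gene bodies came from GENCODE release 44. Peaks overlapping by at least 1 bp were partners or 1 region. Tools were pandas 2.3.3, numpy 2.4.6, scipy 1.17.1 and matplotlib 3.10.9, run in Python 3.11.15. Tested on simulated data, the WT list with 2000 peaks removed gave 2000 of 2000 as unpartnered and 0 of 96910 others. Of 200 middle-ranked shared regions whose WT area was multiplied by 2, 200 were recovered. Both outcomes follow from the changes made, so they check the code and not its sensitivity. For the 6 unpartnered counts, bedtools 2.31.1 gave the same values. The members and lists were chosen with earlier results of these data known. All 9 members were named; of the wider list, genes whose promoter was open in some but not all lists or, up to 6 per comparison, with the most strong unpartnered peaks; and the 3 outside genes nearest to the members' median promoter ranks.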

Additional observations from a re-analysis of the deposited data

How the results depend on the processing

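No paired analysis was possible because each genotype had 1 peak list pooled over its samples, and for the same reason no sample could be left out. Of the alternatives' values for counts and shares over the 9 genes, and for the promoter count of the wider list, 88 stayed within 1.5 times the reported value or its counting error and 14 moved. Of those for single regions and promoters, 24 stayed, 3 moved, all at TXNRD1 by summit value (-13.6 and -19.3 points at 79.8 kb, -32.9 at 84.98 kb in H1047R), and 1 reversed. With peaks of area 500 or more only, regions with peaks in all lists made up 49.3%, WT peaks without an E545K partner 27.6% and H1047R peaks without an E545K partner 32.2%. In the same setting 35 member regions were shared, against 63 with all peaks. Of the 35, E545K was at least 10 points higher than WT in 2 and lower in 7. H1047R was higher than WT in 3 and lower in 4, and E545K higher than H1047R in 2 and lower in 7. These counted as moved by raw counts, over fewer regions. Shares over all regions and all peaks were not computed at area 500, so the values of this setting give no result about the members. The E545K peaks at 14.5 and 4.08 kb upstream of HMOX1 and at 79.8 and 84.98 kb in TXNRD1 fell below 500, so these regions had no value. Without TXNRD1, 3.57% of E545K peaks had no H1047R partner. With strength set by summit value, strong WT peaks without an H1047R partner numbered 1. By summit value, 0 member promoters were at least 10 points higher in E545K than in WT and 0 than in H1047R, and OSGIN1 reversed to -0.69 points. Over whole regions, 44.9% of member regions held an element core; the cause of these moves was not tested beyond the fewer peaks left at area 500. The minimum area of 200 limits what weak regions can show, since a peak just under it in 1 list reads as absent.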
